A study of Mus musculus with 6 samples.

Results

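Haem synthesis is carried out by a chain of enzymes, and 8 genes of that chain were followed here from its first step to its last: Alas1, Alas2, Alad, Uros, Urod, Cpox, Ppox and Fech. The members were chosen by gene name: every probe set (a group of short probes for 1 transcript) that the platform annotation gives to 1 of these genes alone was taken, which gave 19 of 45037 probe sets and 8 of 18193 genes. Among these probe sets, measured values entered the choice only where the main value of a gene was set to its probe set of highest mean level. The pathway, its members and the gene lists below were taken up with earlier results of these arrays known. In those results Alas2 was among the genes with the largest differences between the populations. The values of Alas2 are therefore given as a description, with no test.

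The RNA came from cells sorted out of the fore and hind limbs of mice at postnatal day 3, with the limbs of a litter pooled. Titles give the Tie2-negative population (3 arrays) as lacking CD45, Ter119, integrin alpha V (Itgav) and Tie2, and the Tie2-positive population (3 arrays) as lacking CD45 and Ter119, low for Itgav and positive for Tie2, the angiopoietin receptor. CD45 is an antigen of white blood cells and Ter119 one of maturing red cells, so both gates were set against blood cells. Both populations are given as wild type with no treatment, and the labels elsewhere speak of GFP-labelled mice, which was not settled here. Each sample was hybridised to an Affymetrix Mouse 430 2.0 array, and all values are log2 array values after quantile normalization. No source used here states that samples of a population are from different litters. Whether the spread behind the p-values is technical or lies between litters was not settled. Xist, named after its values were seen, was higher on replicate 1 than on replicates 2 and 3 of both populations (values below). An array value compares a probe set with itself across arrays and does not rank the genes against one another.

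Haem is an iron-carrying ring that every cell needs in small amounts and that the red cell lineage makes in bulk for haemoglobin. The chain starts in the mitochondrion, where glycine and succinyl-CoA are joined by aminolevulinate synthase, passes through the cytosol, and ends in the mitochondrion, where ferrochelatase inserts iron. The first enzyme exists in a housekeeping form, encoded by Alas1 and held down by haem itself, and in an erythroid form, encoded by Alas2 on the X chromosome, which erythroid factors of the GATA family switch on and iron controls at translation. The enzyme that acts between Alad and Uros is not analysed here.

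The cells of the arrays differed in ways that bear on every value below. The median of 14 measured erythroid markers was 11.42, 10.32 and 9.95 on Tie2-negative replicates 1, 2 and 3 and 6.16, 8.13 and 6.32 on Tie2-positive replicates 1, 2 and 3. Of the 14, 11 were called lower in the Tie2-positive population, where 2.53% of all genes were. The median of 10 endothelial markers ran from 5.33 to 5.55 on the Tie2-negative and from 9.20 to 11.78 on the Tie2-positive arrays, and that of 9 neutrophil and monocyte markers was 5.98, 11.88 and 13.69 on Tie2-positive replicates 1, 2 and 3 against 6.14 to 8.68 on the Tie2-negative arrays. The median of 8 B-lineage markers lay between 7.75 and 10.13 on the Tie2-negative and between 5.52 and 5.91 on the Tie2-positive arrays. Of these 8, 5 were called lower in the Tie2-positive population. Skeletal and stromal markers, which the labelled tissue would carry, had a median of 6.87 on Tie2-positive replicate 1. On the other arrays their median lay between 5.63 and 6.01. The array medians of 5.64 to 5.72 are of deposited values over all probe sets, an unlike measure. Among these markers Col3a1, named after its values were seen, gave 6.16, 6.69 and 9.08 on Tie2-negative replicates 1, 2 and 3. On Tie2-positive replicates 1, 2 and 3 it gave 7.96, 10.11 and 11.45 (limma adjusted p = 0.173). The highest value of the other markers in this list was 7.80, for Col1a1 on Tie2-positive replicate 1. The median of 5 megakaryocyte markers ran from 6.12 to 6.33 on the Tie2-negative arrays and was 6.74, 9.86 and 8.58 on Tie2-positive replicates 1, 2 and 3, with Pf4, a platelet chemokine, called higher (5.29 ± 0.79, SE, n = 3 per population; limma adjusted p = 0.0170). That of 6 macrophage markers lay between 5.40 and 6.10 on the Tie2-negative and between 6.07 and 7.11 on the Tie2-positive arrays. No marker was listed at 0, and the part of each cell type in the values below was not tested. In sorted cells measured in bulk, fewer cells of a type and less RNA per cell cannot be told apart.

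The letters upstream of the start sites are shown for the erythroid and the housekeeping form of the first enzyme, and for Cpox, whose main probe set had the largest difference among the later enzymes (another Fech probe set differed by more, and so did Fech without Tie2-negative replicate 3). They come from a RefSeq table (GRCm38.p6) that held windows for 7 of the 8 members (all but Fech). Each run below holds the 250 bases before an annotated start, 5′ to 3′ on the strand of the gene, and capitals mark GATA-type letters, which are AGATAA or AGATAG or TGATAA or TGATAG, searched on both strands.
Alas2, chrX:150547167-150547416, plus strand: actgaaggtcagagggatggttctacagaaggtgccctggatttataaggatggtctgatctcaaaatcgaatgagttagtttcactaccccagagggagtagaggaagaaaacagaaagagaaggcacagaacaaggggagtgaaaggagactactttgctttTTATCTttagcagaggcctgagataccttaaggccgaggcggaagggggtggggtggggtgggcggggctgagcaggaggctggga
Cpox, chr16:58669958-58670207, plus strand: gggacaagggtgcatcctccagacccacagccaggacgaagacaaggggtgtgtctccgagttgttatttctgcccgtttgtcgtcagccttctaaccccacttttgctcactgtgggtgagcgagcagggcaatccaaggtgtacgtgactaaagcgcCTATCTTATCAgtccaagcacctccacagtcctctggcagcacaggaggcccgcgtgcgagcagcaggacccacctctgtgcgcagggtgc
Alas1, chr9:106247955-106248204, minus strand, the more upstream of its 2 starts: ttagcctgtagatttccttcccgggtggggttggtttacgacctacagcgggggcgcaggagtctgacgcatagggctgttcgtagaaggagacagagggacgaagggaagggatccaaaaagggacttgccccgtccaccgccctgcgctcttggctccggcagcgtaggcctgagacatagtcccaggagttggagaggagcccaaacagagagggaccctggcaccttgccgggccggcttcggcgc

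The Alas2 window holds 1 such match, AGATAA on the reverse strand, 86 bases before the start. The Cpox window holds 2, AGATAG and TGATAA on the reverse strand, at 91 and 86 bases before the start, which share a base. Neither Alas1 window holds one. Of all 32851 windows of this length, 26.5% hold at least 1 match and 6.40% at least 2, and of 10 windows of the members 3 hold one (those of Alas2 and Cpox and 1 of the 2 Uros windows). A match describes letters and is no evidence of binding.

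Of both forms of the first enzyme, Alas2 had the lower and Alas1 the higher values on the Tie2-positive arrays, where Alas1 did not pass the test and Alas2 was not tested. Alas2 gave 13.87, 10.44 and 9.15 on Tie2-negative replicates 1, 2 and 3, and 6.13, 6.87 and 5.62 on Tie2-positive replicates 1, 2 and 3. The populations did not overlap, and the Tie2-negative arrays spread far more widely than the Tie2-positive ones. The log2 difference, Tie2-positive minus Tie2-negative, was -4.95 ± 1.13 (SE, n = 3 per population), or 30.9-fold, with means of 6.20 ± 0.63 (SD) and 11.15 ± 2.44 (SD). Only 1 probe set represents Alas2.

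Alas1 gave 7.31, 7.83 and 7.92 on the Tie2-negative arrays and 8.97, 9.09 and 11.04 on Tie2-positive replicates 1, 2 and 3. All Tie2-positive values lay above all Tie2-negative ones, with replicate 3 standing nearly 2 log2 units above the rest. The log2 difference of 2.01 ± 0.57 (SE, n = 3 per population), or 4.03-fold, did not pass (limma adjusted p = 0.0785, over 18193 genes with a threshold of 0.05). It passed with array weights (1.56, adjusted p = 0.0439) and when Tie2-positive replicate 1 was left out (2.38, adjusted p = 0.0331). Without Tie2-positive replicate 3 it was 1.34 (adjusted p = 0.0515). The neutrophil and monocyte medians of Tie2-positive replicates 1, 2 and 3 were 5.98, 11.88 and 13.69, and their part in the Alas1 values was not tested. The second Alas1 probe set (1455282_x_at) ran from 5.44 to 5.91 on the Tie2-negative arrays and gave 6.42, 6.27 and 8.01 on the Tie2-positive ones, again with replicate 3 highest. Its difference was 1.23 ± 0.45 (SE) and did not pass among 45037 probe sets (limma adjusted p = 0.155).

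Set against each other within an array, the Alas2 value minus the Alas1 value was 6.56, 2.61 and 1.23 on Tie2-negative replicates 1, 2 and 3 and -2.84, -2.22 and -5.42 on Tie2-positive replicates 1, 2 and 3. The sign of such a difference between probe sets has no meaning of its own. Its shift between the populations was -6.96 ± 1.88 (SE, n = 3 per population), which rests in large part on Alas2 and is a description with no test. It lay between -8.08 and -5.41 when each array was left out in turn.

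**Figure D1:**
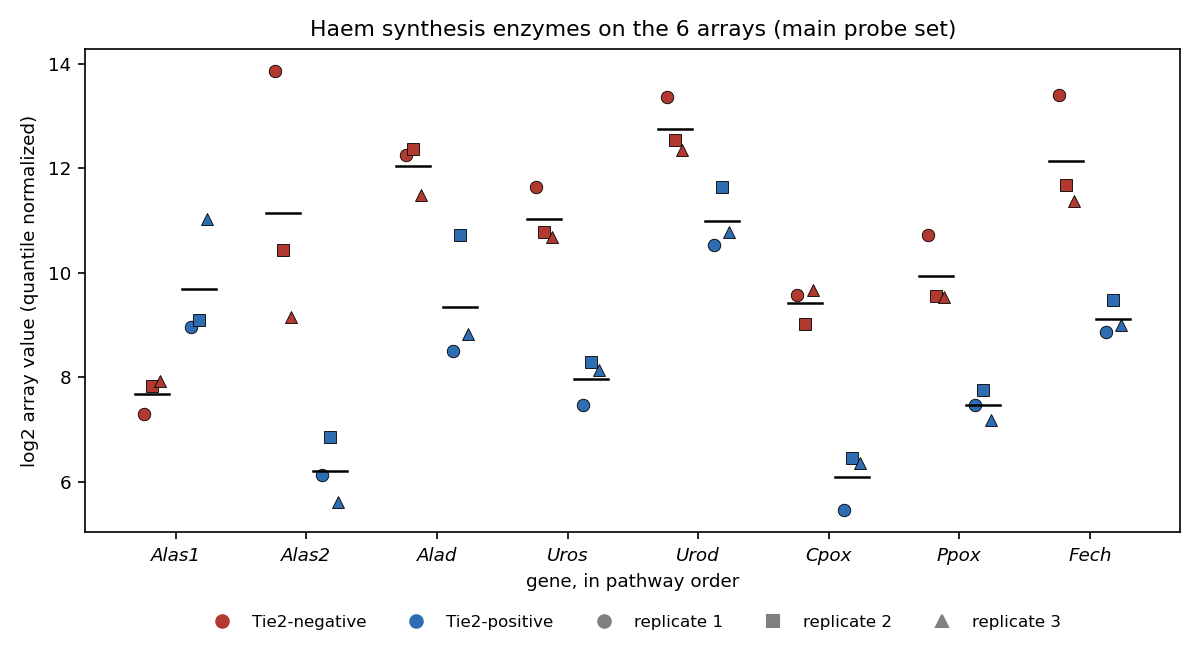
Log2 array values of the main probe set of the 8 genes (vertical axis) in pathway order (horizontal axis), Tie2-negative arrays in red and Tie2-positive arrays in blue, 1 symbol per replicate, with a bar at each mean. Alas1 alone lies higher on the Tie2-positive arrays; for the other 7 genes every Tie2-negative value lies above every Tie2-positive one, and Tie2-negative replicate 1 stands at 13.87 for Alas2.

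The enzymes after the first step fell together. Of the 7 members other than Alas2, 6 fell in the Tie2-positive population and 0 rose (limma adjusted p under 0.05), where 2.53% of all genes fell and 4.86% rose, and the member that did not pass was Alas1. The populations did not overlap in any of these 7, of which 6 had lower and 1 had higher Tie2-positive values, arrangements found in 23.9% and 15.2% of all genes. Across the 18193 genes the median log2 difference was -0.11. The 6 changes ran from -3.34 to -1.76, all smaller than the difference of Alas2.

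Alad makes porphobilinogen, the ring's building block, and is the first enzyme outside the mitochondrion. It gave 12.26, 12.38 and 11.49 on the Tie2-negative arrays and 8.50, 10.72 and 8.84 on the Tie2-positive arrays, where replicate 2 stood above the others. It fell by 2.69 ± 0.59 (SE, n = 3 per population), with a limma adjusted p of 0.0441, and lost the call without Tie2-negative replicate 1, 2 or 3 (adjusted p = 0.150, 0.148 and 0.0904), without Tie2-positive replicate 3 (0.0875) or with array weights (-1.65, adjusted p = 0.0546). The second Alad probe set (1457306_at) ran from 8.32 to 8.81 and from 5.86 to 6.79, and fell by 2.43 ± 0.31 (SE) among all probe sets (limma adjusted p = 0.0128).

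Uros closes the linear tetrapyrrole into the ring, uroporphyrinogen III. Its values were 11.64, 10.78 and 10.69 on the Tie2-negative and 7.47, 8.29 and 8.13 on the Tie2-positive arrays, a gap of over 2 log2 units between the closest arrays. It fell by 3.08 ± 0.35 (SE, n = 3 per population), with a limma adjusted p of 0.0105. Urod, which trims the side chains of that ring, gave 13.37, 12.54 and 12.34 against 10.54, 11.65 and 10.79, so Tie2-positive replicate 2 came within 1 log2 unit of Tie2-negative replicate 3. Of the 6 it had the smallest change, and fell by 1.76 ± 0.38 (SE; limma adjusted p = 0.0416), without passing when Tie2-negative replicate 3 (adjusted p = 0.0805) or Tie2-positive replicate 3 (0.0823) was left out.

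Cpox, which returns the pathway to the mitochondrion and makes protoporphyrinogen, gave 9.58, 9.01 and 9.68 on the Tie2-negative and 5.45, 6.46 and 6.36 on the Tie2-positive arrays. Both populations were tight, and the gene fell by 3.34 ± 0.34 (SE, n = 3 per population, adjusted p in limma 0.0104), or 10.1-fold. Ppox, which oxidises that product to protoporphyrin, gave 10.73, 9.56 and 9.54 against 7.47, 7.75 and 7.18, and fell by 2.47 ± 0.38 (SE; limma adjusted p = 0.0178). Fech, the ferrochelatase that completes haem, gave 13.40, 11.68 and 11.37 against 8.86, 9.48 and 8.997. Tie2-negative replicate 1 stood apart for Fech as it did for Alas2. Fech fell by 3.04 ± 0.53 (SE; limma adjusted p = 0.0243), and lost the call when Tie2-positive replicate 2 was left out (adjusted p = 0.0591).

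Without Tie2-negative replicate 1 or 2, limma called 0 of 18193 genes (the lowest adjusted p was 0.0518 and 0.0607, and before adjustment 4012 and 3980 genes lay under 0.05), so none of the 6 calls held there. All 7 members other than Alas2 kept an unadjusted p under 0.05 in those fits. With the replicate number as a block in the model, limma also called 0 genes (lowest adjusted p 0.0521), so none of the 6 calls held there either. Whether the replicate numbers mark paired samples was not settled. The count of 6 was 4 without Tie2-negative replicate 3 or Tie2-positive replicate 3 and 6 with Tie2-positive replicates 2 and 3, the arrays with high neutrophil markers, left out together, a setting chosen after seeing the data.

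The probe sets of a gene told the same direction but not the same size. Of the 19 probe sets, 17 had lower Tie2-positive values with no overlap between the populations, and the remaining ones were the pair of Alas1. That lower arrangement was found in 23.9% of all genes, and its share over all probe sets was not analysed. Some of the 17 differed little and did not pass. Among the 16 probe sets of the 6 later enzymes, 11 were called lower in the fit over all 45037 probe sets, where 1.60% were. Fech shows the spread best: its main probe set (1418699_s_at), 1449181_at and 1418698_a_at changed by -3.04 ± 0.52, -3.18 ± 0.46 and -3.55 ± 0.55 (SE, n = 3 per population, limma adjusted p = 0.0250, 0.0169 and 0.0194), whereas 1427696_at, with values between 5.23 and 5.91 on all 6 arrays, gave -0.35 ± 0.17 (SE) and did not pass. For Cpox, 1422492_at fell by 3.26 ± 0.42 (SE; limma adjusted p = 0.0128), close to the main probe set, and 1440747_at gave -1.89 ± 0.57 (SE) without passing. For Urod, the main probe set carries the suffix x_at, given to probe sets that can match several transcripts, and 1417206_at, which does not, fell by 2.02 ± 0.40 (SE; limma adjusted p = 0.0384). The second Uros probe set, 1440535_at (-1.36 ± 0.54, SE), and the Ppox probe sets 1441862_at (-0.60 ± 0.20, SE) and 1448065_at (-1.13 ± 0.50, SE) did not pass. Since there are no detection calls, it was not analysed which of the lower values were above background.

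**Figure D2:**
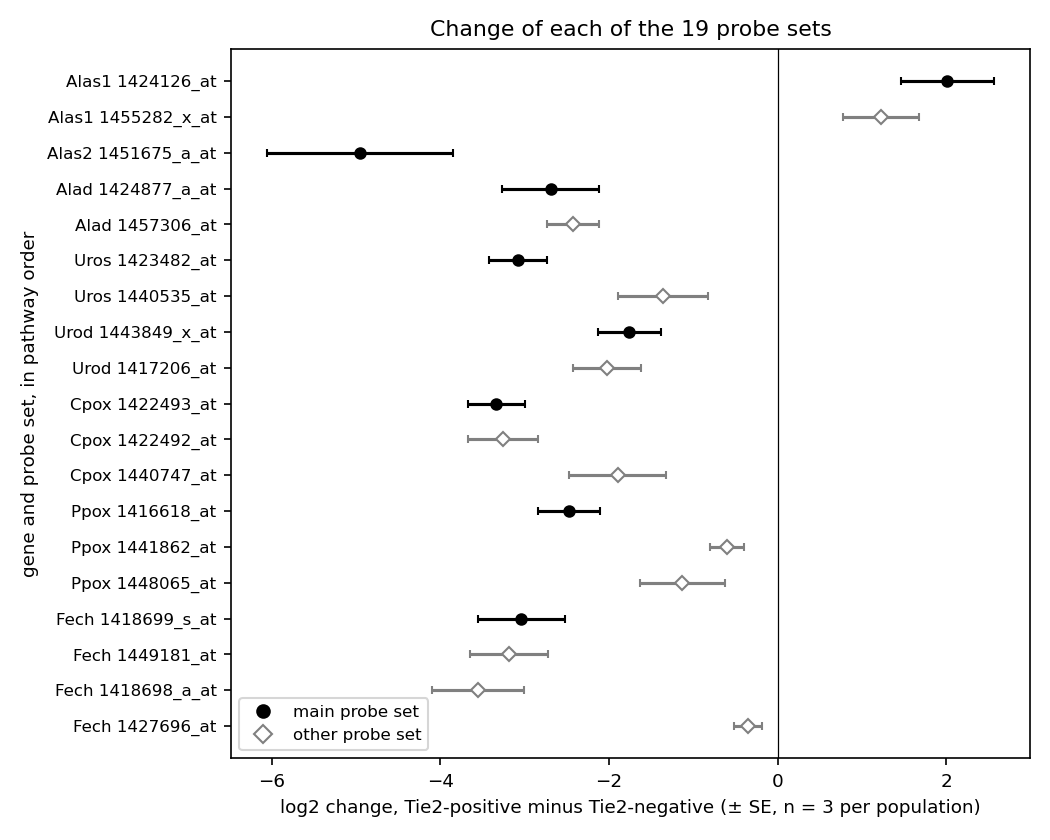
Log2 change, Tie2-positive minus Tie2-negative, with its SE (horizontal axis, n = 3 per population), of each probe set in pathway order (vertical axis), with filled circles for the main and open diamonds for the other probe sets. The Alas1 pair lies right of 0 and the other 17 left of it, from -4.95 for Alas2 to -0.35 for a Fech probe set.

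Among the Tie2-negative arrays, Alas2 varied more than any other member. Its range of 4.72 over the 3 arrays was the second widest of 18193 genes, where the median gene had a range of 0.41 and the 99th percentile was 2.09. Fech followed with 2.03, Ppox with 1.19, Urod with 1.02, Uros with 0.95, Alad with 0.89, Cpox with 0.67 and Alas1 with 0.62. Replicate 1 was the highest Tie2-negative array for 5 of the 7 members other than Alas1, with Alad highest on replicate 2 and Cpox on replicate 3. Over all genes replicate 1 was the highest for 33.6%, and over the 14 erythroid markers for all 14.

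The distance of replicate 1 from the mean of Tie2-negative replicates 2 and 3 was 4.07 for Alas2 (16.8-fold), 1.87 for Fech, 1.18 for Ppox, 0.92 for Urod, 0.90 for Uros, 0.33 for Alad, 0.23 for Cpox and -0.57 for Alas1. With 1 array against 2 these are values with no test. The median of that distance was 0.90 over the erythroid markers and -0.04 over all genes, of which 1 in 10 lay below -0.54 and 1 in 10 above 0.47. Red-cell transcription factors differed in this among themselves. Klf1, which drives erythroid genes, gave 12.35, 12.07 and 12.25 on Tie2-negative replicates 1, 2 and 3, a distance of 0.19. Gata1 gave 9.99, 9.82 and 10.27, a distance of -0.05, and Nfe2, a factor of erythroid and megakaryocyte genes, gave 10.96, 9.01 and 9.23, a distance of 1.84, close to that of Fech. Gata1 and Nfe2 were named after their values were seen. When the probe sets of each gene were averaged, the distance was 1.45 for Uros, 0.97 for Cpox and -0.11 for Alas1. Another transcript that set replicate 1 apart was Xist, the RNA that coats the inactive X chromosome of female cells, named after its values were seen: it gave 11.02, 6.82 and 6.87 on the Tie2-negative and 11.65, 6.36 and 5.99 on the Tie2-positive arrays. Alas2 is X-linked, and its values on Tie2-positive replicates 1, 2 and 3 were 6.13, 6.87 and 5.62, all below those on the Tie2-negative arrays. The part of either the erythroid markers or Xist in the Alas2 value of Tie2-negative replicate 1 was not tested.

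**Figure D3:**
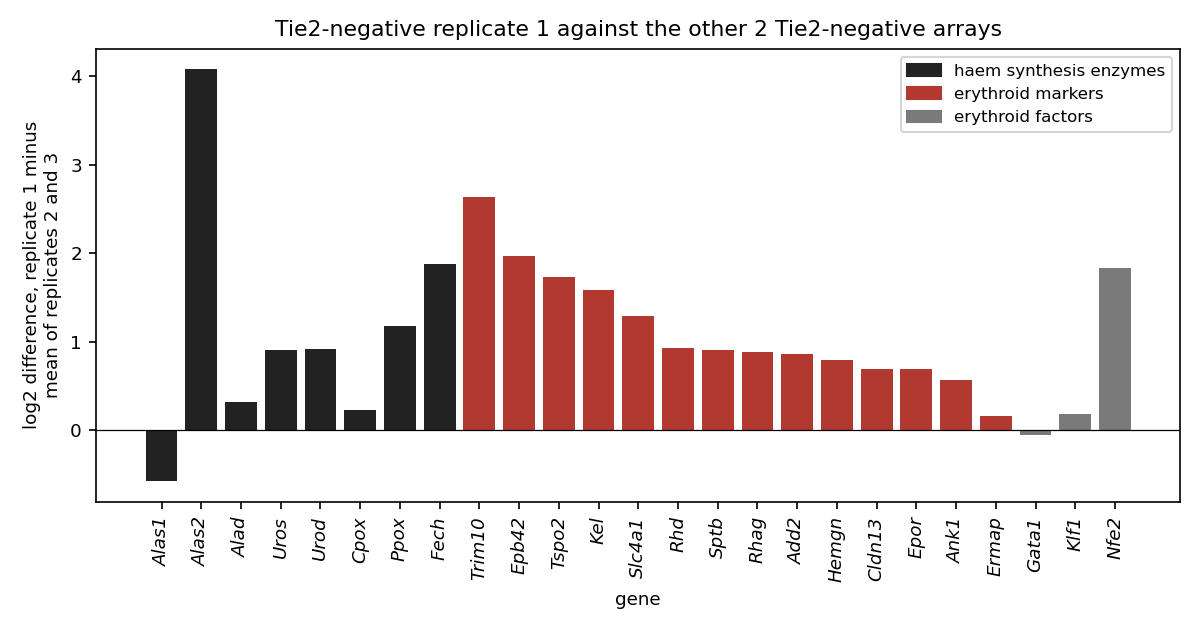
Log2 difference of Tie2-negative replicate 1 from the mean of Tie2-negative replicates 2 and 3 (vertical axis) for the 8 enzymes (black, in pathway order), 14 erythroid markers (red, by size) and the factors Gata1, Klf1 and Nfe2 (grey). Alas2 reaches 4.07, above every marker shown, and Gata1, Klf1 and Nfe2 lie at -0.05, 0.19 and 1.84.

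On the Tie2-positive side, replicate 2 had the highest value for all 7 members other than Alas1 and for 13 of the 14 erythroid markers, against 27.4% of all genes. Among these 7 members the range over the Tie2-positive arrays was widest for Alad, at 2.22, followed by 1.25 for Alas2 and 1.12 for Urod.

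The next genes supply or carry substrates and intermediates. Of 13 measured substrate and carrier genes, 5 fell and 0 rose, with a median log2 change of -0.70. Over all genes 2.53% fell and 4.86% rose, which also stands beside the counts of the lists that follow. Slc25a37 (mitoferrin, which brings iron into the mitochondrion) gave 13.17, 10.79 and 10.45 against 6.94, 8.29 and 8.48 and fell by 3.57 ± 0.77 (SE, n = 3 per population, adjusted p in limma 0.0428). Slc25a38, the mitochondrial glycine carrier of the first step, gave 10.38, 9.73 and 10.00 against 7.55, 7.78 and 7.59 and fell by 2.39 ± 0.24 (SE; limma adjusted p = 0.0103). Abcb10, an inner membrane transporter that binds mitoferrin, fell by 2.86 ± 0.39 (SE), Abcb6, a porphyrin transporter, by 2.27 ± 0.30 (SE), and Tmem14c, which moves protoporphyrinogen, by 1.88 ± 0.28 (SE), with limma adjusted p between 0.0136 and 0.0162. The succinyl-CoA enzymes Sucla2 (-0.01 ± 0.29, SE), Suclg1 (0.07 ± 0.37, SE) and Suclg2 (0.21 ± 0.30, SE), which serve the citric acid cycle in all cells and were named after their values were seen, did not pass. Slc6a9, a glycine transporter of the cell surface (-2.26 ± 0.59, SE; limma adjusted p = 0.0650), and Clpx, a mitochondrial unfoldase that acts on aminolevulinate synthase (-0.70 ± 0.28, SE; limma adjusted p = 0.157), also named after their values were seen, did not pass although their populations did not overlap. The count of 5 was 3 without Tie2-negative replicate 3.

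Iron-sulphur cluster assembly draws on the same mitochondrial iron. Of 11 measured genes, 5 fell and 0 rose, with a median of -1.15: Glrx5, a glutaredoxin that hands on clusters (-1.46 ± 0.30, SE, n = 3 per population), Iba57 (-1.41 ± 0.21, SE), Lyrm4 (-1.31 ± 0.25, SE), Bola3 (-1.20 ± 0.27, SE) and the cysteine desulphurase Nfs1 (-1.15 ± 0.23, SE), with limma adjusted p between 0.0178 and 0.0461. This count was 0, 2 and 1 without Tie2-negative replicate 3, Tie2-positive replicate 2 and Tie2-positive replicate 3.

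Of 11 regulators of haem and iron, limma called 0, and the median change was -0.34. An unadjusted limma p under 0.05 was found for 3 of the 11. Over all 18193 genes, 5325 lay under 0.05 before adjustment with eBayes without a trend, and 5164 with robust eBayes. The count of 3 in 11 therefore does not stand out from all genes. Klf1 gave 6.34, 10.42 and 9.04 on Tie2-positive replicates 1, 2 and 3, a spread of about 4 log2 units, and its difference of -3.62 ± 0.94 (SE, n = 3 per population) did not pass (adjusted p = 0.0646). Aco1, an iron-sensing protein that binds messages such as that of Alas2, gave -0.18 ± 0.27 (SE; adjusted p = 0.675). Gata1 gave 5.58, 9.09 and 9.80 on the Tie2-positive arrays, so that replicates 2 and 3 came near the Tie2-negative values while their Alas2 values were 6.87 and 5.62. Those are also the arrays with the higher megakaryocyte medians (9.86 and 8.58), and the part of these cells in the Gata1 values was not tested. Among 9 genes of haem export, breakdown and haem A, 1 fell and 0 rose, with a median of -0.53. It was Blvrb, a biliverdin reductase abundant in red cells, which gave 12.47, 11.64 and 11.34 against 8.58, 9.39 and 7.88 and fell by 3.20 ± 0.45 (SE; limma adjusted p = 0.0149).

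**Figure D4:**
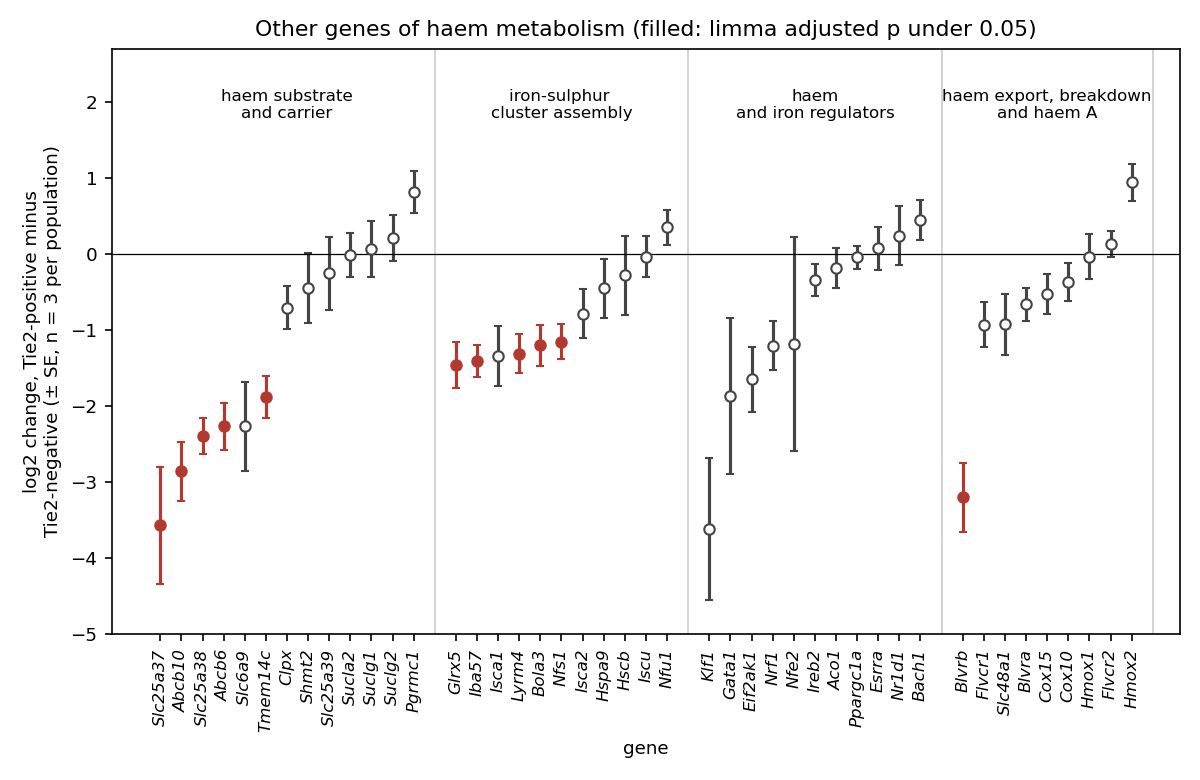
Log2 change, Tie2-positive minus Tie2-negative, with its SE (vertical axis, n = 3 per population), of each measured gene of 4 lists around haem synthesis (horizontal axis); filled red points passed limma at an adjusted p under 0.05. In the substrate and carrier list 5 of 13 genes are filled, led by Slc25a37 at -3.57, and in the regulator list 0 of 11.

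The genes whose 6 array values, each centred on its mean, lay nearest to those of Alas2 were Trim10, Hbb-b2, Apol8, Tent5c and 5430401H09Rik, with root mean square differences of 0.55, 0.61, 0.70, 0.78 and 0.79 log2 units over 6 arrays. Trim10, a gene of erythroid differentiation, gave 12.53, 10.14 and 9.65 on the Tie2-negative and 5.42, 6.52 and 5.31 on the Tie2-positive arrays. Hbb-b2, an adult beta globin whose sequence is close to that of its neighbour so that the probes may not tell them apart, gave 11.67, 7.88 and 7.19 against 5.45, 4.66 and 4.13. Among the members, Fech lay nearest to Alas2 (1.26) and Alas1 farthest (3.95). This measure includes the difference between the populations, whose sign in Alas1 is opposite to that in Alas2, so it adds little to the changes given above. Nearest to Alas1 were Cers6, Cldn15, Irak3, Homez and Slco4c1, with differences of 0.20, 0.21, 0.34, 0.35 and 0.36. Cers6, a ceramide synthase, gave 4.06, 4.86 and 5.26 against 6.00, 6.40 and 8.06, and like Alas1 it was highest on Tie2-positive replicate 3.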

How the data were processed

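Expression was measured on 6 arrays. Per the labels' protocols, RNA was amplified in a double round, hybridised to Affymetrix Mouse 430 2.0 arrays and scanned with GCOS 1.1.1. The deposited values are log2 values, 1 for each probe set on each array, summarised by the authors in a way not given in the sources used here; the log2 scale was read from the range of the values. After leaving out 64 array controls from the tests, 34945 of 45037 probe sets carried 1 gene symbol, 932 several and 9160 none; a RefSeq table (GRCm38.p6) changed 0 symbols. The upper quartiles of the deposited values ran from 7.26 to 7.33 (Tie2-negative) and from 7.44 to 7.52 (Tie2-positive), so values were quantile normalized, which also removes that difference. Each gene took the probe set with the highest mean. Populations were compared with limma 3.58.1 in R 4.3.3 (lmFit, eBayes with a trend, no covariates, two-sided, Benjamini-Hochberg over 18193 genes). No array pair held identical values (0 pairs). Arrays have no read depth, and their number limits the precision; an exact permutation of 3 against 3 cannot go below 0.1.

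The members and the gene lists were chosen with earlier results of these data known. Named genes are all members, in each list all called genes (or, with none called, those 2 with the highest mean), and the 5 genes nearest to Alas1 and to Alas2. On simulated data of 18193 genes the fit recovered 28.8%, 70.6% and 90.3% of genes changed by 1, 2 and 3 log2 units, and 6.54% of its calls were false. The alternatives are in the closing section.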

Additional observations from a re-analysis of the deposited data

How the results depend on the processing

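All 136 alternative values of a member's change kept their direction, which leaving out an array could not turn because the groups do not overlap. With the replicate block, limma called 0 genes lower and 0 higher: Alad gave -2.69 (adjusted p = 0.0620), Uros -3.08 (0.0551), Urod -1.76 (0.0949), Cpox -3.34 (0.0521), Ppox -2.47 (0.0564) and Fech -3.04 (0.0666), and 0 genes of each list passed. Same-numbered samples correlated at 0.140, 0.005 and 0.186 in their deviations from the population means. Each Tie2-negative replicate correlated best with the Tie2-positive replicate of its number. Tie2-positive replicate 2 correlated best with Tie2-negative replicate 3, at 0.055. Xist was high on replicate 1 of both populations. The main fit did not pair the samples, and whether the numbers mark pairs was not settled. With array weights limma called 2462 genes lower and 2177 higher, Alas1 gave 1.56 (adjusted p = 0.0439) and Alad -1.65 (0.0546). Over all probe sets the calls were 721 lower and 1525 higher. With Tie2-positive replicate 1 alone, a setting chosen after seeing the data which takes its spread from the Tie2-negative arrays, they were 1642 and 1995, and Alas1 gave 1.28 (adjusted p = 0.0484). The values as deposited, arrays centred on medians, the filter on low values, averaged probe sets, leaving out x_at and s_at probe sets, and other variance models each left 6 members called lower. Averaging probe sets moved the distance of Tie2-negative replicate 1 to -0.11 for Alas1, 1.45 for Uros and 0.97 for Cpox. When each array was left out in turn, changes ran from 1.34 to 2.38 for Alas1, from -5.95 to -3.59 for Alas2, from -3.38 to -2.26 for Alad, from -3.25 to -2.77 for Uros, from -2.09 to -1.45 for Urod, from -3.54 to -3.02 for Cpox, from -2.68 to -2.08 for Ppox and from -3.43 to -2.41 for Fech. The calls over all genes then ran from 0 to 652 lower and from 0 to 1496 higher, those among the members from 0 to 6, among substrate and carrier genes from 0 to 5, in cluster assembly from 0 to 5, among regulators from 0 to 1, in export and breakdown from 0 to 1 and among erythroid markers from 0 to 12. The cause of these shifts was not tested. With 3 arrays per population and no detection calls, the sizes of large differences are those of the array values.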

Other observations

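A pair of genes around haem had higher values in the Tie2-positive population, as Alas1 had, and were named after their values were seen. Hmox2, the constitutive haem oxygenase that breaks haem down, gave 9.14, 9.75 and 9.50 on the Tie2-negative and 10.66, 10.27 and 10.28 on the Tie2-positive arrays, with no overlap, but its difference of 0.94 ± 0.24 (SE, n = 3 per population) did not pass (limma adjusted p = 0.0625). Pgrmc1, a haem-binding partner of ferrochelatase, gave 9.58, 9.77 and 10.16 against 11.04, 10.67 and 10.22, a difference of 0.81 ± 0.28 (SE) that did not pass either (limma adjusted p = 0.121).

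The only gene with a wider range than Alas2 over the Tie2-negative arrays was Apol11b, named after its values were seen, with 9.24, 3.91 and 3.68 on replicates 1, 2 and 3. Over those arrays the Y-linked genes Eif2s3y, Kdm5d and Uty had ranges of 0.27, 0.55 and 0.67. On the Tie2-positive arrays all 3 were lowest on replicate 1, where Xist was high: Eif2s3y gave 8.08, 9.32 and 9.08, Kdm5d 5.88, 6.47 and 6.995, and Uty 5.92, 6.47 and 6.39.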
